A study of Mus musculus with 4 samples.

Results

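Tpsb2, Tpsab1 and Tpsg1 are mouse tryptases, and Cpa3 is mast cell carboxypeptidase A3. They were taken as every probe set whose platform annotation symbol is one of these 4 names. The rule found 4 probe sets, 1 for each gene, among 33793 on the array and 22180 genes with a symbol of their own. No probe set joined one of the 4 genes with another symbol.

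Tryptases are trypsin-like serine proteases. Tpsb2 encodes the tryptase also called Mcpt6 and Tpsab1 the one also called Mcpt7, which are stored in mast cell granules and secreted, while the product of Tpsg1 is anchored in the membrane. Cpa3 encodes a zinc exopeptidase that trims amino acids from the C-terminal end of peptides. The Tpsb2 tryptase and carboxypeptidase A3 are held in the granule by the negatively charged chains of the proteoglycan serglycin. In mice the granule tryptases and carboxypeptidase A3 are classically markers of connective tissue mast cells, beside the chymases Cma1 and Mcpt4. Mcpt1 and Mcpt2 are the chymases by which mucosal mast cells are known. In C57BL/6 mice Tpsab1 carries a splice site defect, and RefSeq, which is built on C57BL/6J, lists it as a transcribed pseudogene. The mice of this series were BALB/c.

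RNA was measured in 4 groups with 1 array each, so there is no replicate error and no p-value below. Bone marrow of BALB/c mice was cultured for 3 to 4 weeks in 10 ng/ml murine interleukin-3 plus 10 ng/ml stem cell factor to give bone marrow-derived mast cells, or BMMCs. For the next 6 days these stayed in normal medium (control), received TGF-β1 at 5 ng/ml, or shared the dish with hamster CHO cells, an ovary line, made to express mouse Dll1, a Notch ligand. The labels name selection on magnetic beads for c-Kit after the Dll1 coculture, and no selection for the control and TGF-β1 cultures. The fourth group was intestinal mast cells of untreated BALB/c mice, sorted out of small intestinal lamina propria by their FcεRI and c-Kit. Neither the age of the mice nor how many gave cells is stated. The Dll1 coculture differed from the control in feeder cells and bead selection as well as in ligand, and the intestinal cells differed in source, digestion and sorting, and these cannot be told apart. In such bulk samples, fewer cells of a type and less RNA per cell cannot be told apart either.

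Values are log2 probe set values between 4.13 and 13.14. A gene was read as above background when it passed a limit set on each array, the 95th percentile over 1443 receptor probe sets (olfactory, vomeronasal and taste). That limit was 5.12 for control, 5.21 for TGF-β1, 5.13 for Dll1 and 5.11 for the intestinal array. To be called higher or lower, a gene had to pass the limit on 1 or both arrays of a pair and differ by 2-fold or more, counting any dimmer value as equal to the limit. The brightest probe sets read 13.06, 13.14, 13.11 and 13.00 in the same order, and whether they were saturated is not known. Levels are compared within a gene between arrays, not between genes.

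Promoters of Cpa3 and Tpsg1 were in the RefSeq table, and those of Tpsb2 and Tpsab1 were not. They are shown for the member that read near the top of every array and for one that stayed near background. Each line gives the 250 bases before the start in GRCm38.p6, 5′ to 3′ on the gene's strand, with the letters GATAA and TATAAA of either strand in capitals. GATAA is the core bound by GATA factors, of which Gata1 and Gata2 act in mast cells, and TATAAA is the TATA box.
Cpa3, chr3:20242182-20242431, minus strand: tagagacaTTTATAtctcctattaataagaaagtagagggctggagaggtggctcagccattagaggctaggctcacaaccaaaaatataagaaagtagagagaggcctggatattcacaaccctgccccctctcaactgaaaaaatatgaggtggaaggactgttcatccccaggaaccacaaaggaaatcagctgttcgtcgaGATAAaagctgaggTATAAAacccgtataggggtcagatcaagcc
Tpsg1, chr17:25369023-25369272, plus strand: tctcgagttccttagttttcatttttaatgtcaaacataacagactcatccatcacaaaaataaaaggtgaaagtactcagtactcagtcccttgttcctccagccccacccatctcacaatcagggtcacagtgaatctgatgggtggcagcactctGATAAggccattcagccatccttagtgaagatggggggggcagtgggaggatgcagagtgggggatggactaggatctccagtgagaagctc

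In Cpa3, TATAAA lay 31 to 26 bases before the start and GATAA 45 to 41 bases before it. The same letters TATAAA, on the other strand, lay again at 242 to 237 bases. In the Tpsg1 promoter shown, GATAA lay 92 to 88 bases before the start, and TATAAA was not found. A second Tpsg1 start in the table, also with 250 bases before it, held neither. GATAA, which reads TTATC on the other strand, was in 22.6% of the 32851 promoters of the table. TATAAA, which there reads TTTATA, was in 12.4%.

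Other letters were searched on both strands as well. CANNTG, the E-box read by factors such as Mitf, was found in 2 places in the Cpa3 promoter and in none of the Tpsg1 promoter shown, and in 3 places before the second Tpsg1 start, against 66.2% of all promoters with at least 1. CAGAC, with GTCTG as its other strand, is the run of letters of a SMAD-binding element and occurred once in that Tpsg1 promoter and not in Cpa3, against 42.2% of all. TGGGAA, with TTCCCA as its other strand, is the core read by the Notch partner Rbpj and was in neither, against 21.6% of all. CCGGAA, with TTCCGG as its other strand, is an ETS core and was in neither, against 12% of all. The motifs were counted separately, and none of the matches named here overlapped. A match here is a run of letters, not a site.

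**Figure D1:**
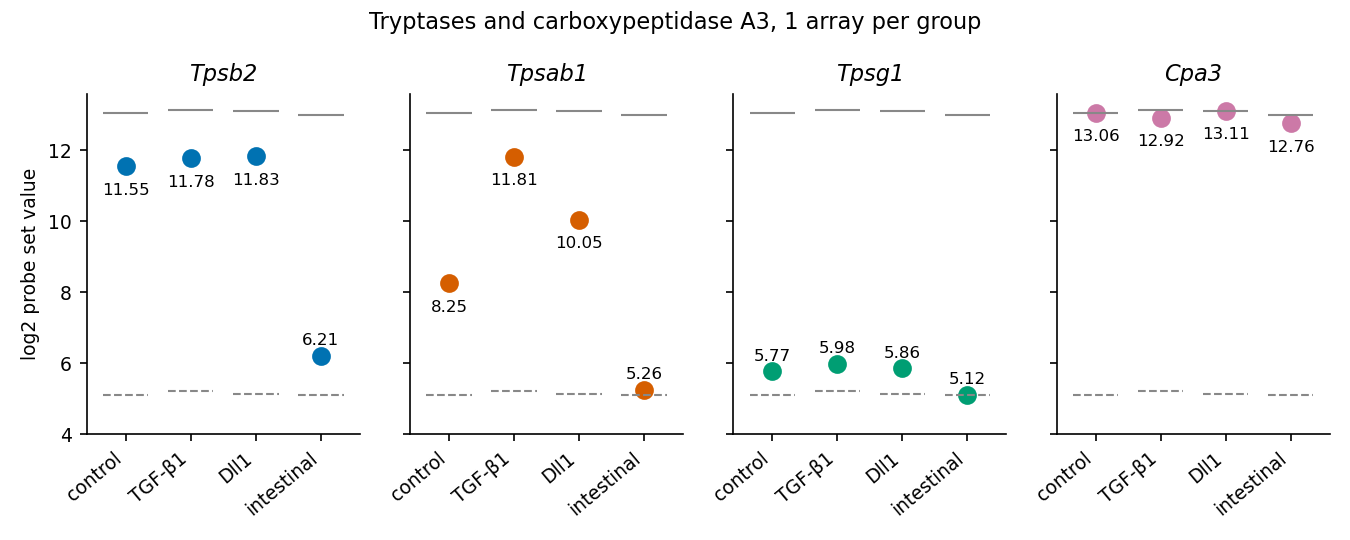
Log2 probe set value (y axis) of Tpsb2, Tpsab1, Tpsg1 and Cpa3 on the control, TGF-β1, Dll1 and intestinal arrays (x axis), 1 point per array. Dashed bars mark each array's background limit and solid bars its brightest probe set: Tpsb2 drops from 11.55 or more to 6.21 on the intestinal array, Tpsab1 spreads from 5.26 to 11.81, Tpsg1 stays under 6 and Cpa3 sits at 12.76 or more.

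Tpsb2 (probe set 17334666) read 11.55 in control BMMCs, 11.78 with TGF-β1, 11.83 with Dll1 and 6.21 in intestinal mast cells. The 3 cultures lay within 0.28 of each other, and the intestinal value stood apart below them, still 1.10 above its background limit. In the intestinal cells Tpsb2 was 40.6-fold lower than in control BMMCs, 47.7-fold lower than with TGF-β1 and 49.1-fold lower than with Dll1. Against control this was the lowest difference of all 12722 genes tested, and against TGF-β1 and Dll1 it ranked 2 from the lowest. In the cultures no pair reached 2-fold. Its differences were 0.23 for TGF-β1 minus control, 0.28 for Dll1 minus control and 0.04 for Dll1 minus TGF-β1, of which the last turned to -0.01 when array medians were subtracted.

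Tpsab1 (probe set 17342238) read 8.25 in control BMMCs, 11.81 with TGF-β1, 10.05 with Dll1 and 5.26 in intestinal cells. Each of the 4 arrays was at least 2-fold away from every other, in the order TGF-β1, Dll1, control, intestinal, so this tryptase had the widest span of the 4 genes, at 6.55. TGF-β1 BMMCs were 11.8-fold above control, the difference that ranked 3 from the highest among 12023 genes, after Mcpt1 and Mcpt2. Dll1 BMMCs were 3.50-fold above control and 3.39-fold below TGF-β1. In intestinal cells Tpsab1 was 7.93-fold below control, 27.7-fold below Dll1 and 93.9-fold below TGF-β1. The last was the lowest difference of the 12551 genes tested between those arrays. The intestinal reading was only 0.15 above its limit, so the size of these falls depends on where background is set: with the limit at the 99th percentile they became lower bounds, with log2 differences of -2.32, -4.13 and -5.89 in the order control, Dll1, TGF-β1.

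The pair of granule tryptases did not move alike in the cultures. From control to TGF-β1, Tpsab1 rose by 3.33 more than Tpsb2 on the log2 scale, and from control to Dll1 by 1.53 more. From control to intestinal cells the differences were -5.34 for Tpsb2 and -2.99 for Tpsab1, but Tpsab1 stood only 3.13 above its limit in control and had no room for a fall as large as that of Tpsb2. With TGF-β1 both stood at least 6.57 above the limit, and the intestinal differences from that array were -5.57 for Tpsb2 and -6.55 for Tpsab1. From Dll1, where Tpsab1 stood 4.93 above the limit, they were -5.62 and -4.79 in the same order. Tryptases are close relatives and their probe sets can share probe sequence, so their separate levels carry some uncertainty.

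Tpsg1 (probe set 17334674) read 5.77 in control BMMCs, 5.98 with TGF-β1, 5.86 with Dll1 and 5.12 in intestinal cells. It stayed within 0.77 of the limit on every array, and the intestinal value was 0.01 above it. No pair reached 2-fold. The intestinal array differed by -0.65 from control, by -0.86 from TGF-β1 and by -0.73 from Dll1 on the log2 scale, and differences this near the floor of the scale are compressed. After 16 was taken off each linear value, all 3 passed 2-fold (-1.03, -1.33 and -1.15), and with background at the 99th percentile Tpsg1 was above the limit on the TGF-β1 array alone.

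Cpa3 (probe set 17404337) read 13.06 in control BMMCs, 12.92 with TGF-β1, 13.11 with Dll1 and 12.76 in intestinal cells. It was the brightest probe set on the control and Dll1 arrays, and 2 probe sets read higher on the TGF-β1 array and 7 on the intestinal one. The 4 values lay within 0.35, with the intestinal array lowest, and no pair reached 2-fold. The largest of its differences was 1.27-fold, intestinal against Dll1. Its difference for Dll1 minus control, 0.04, became -0.04 with array medians subtracted. At the top of the scale a difference can be hidden by saturation. Of the 29 genes that read above 12 in control BMMCs, 9 were at least 2-fold lower in intestinal cells, beside 6.74% of all genes tested. Among the 9 was the chymase Cma1, which fell there by 4.96 from 12.12. The 29 were picked for a high control reading, which leaves more room to fall than to rise, and none was 2-fold higher. No other gene read as high as Cpa3 in control, so the others give no fall from its height. Whether Cpa3 itself was saturated was not tested.

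Read against all genes, 1 of the 4 genes was higher and none lower with TGF-β1 than in control, where 0.507% of 12023 genes tested were higher and 0.89% lower (at least 2-fold, as throughout). With Dll1 against control it was again 1 of 4 higher and none lower, with 1.64% of all genes higher and 1.78% lower. The gene was Tpsab1 each time, and both comparisons use the same control array. Of the genes called between Dll1 and control, 47.9% were higher, and 35.6% were higher after array medians were subtracted. Between Dll1 and TGF-β1, 1 of 4 was lower (Tpsab1) and none higher, beside 1.9% and 2.19% of all genes.

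In intestinal cells, 2 of 4 (Tpsb2 and Tpsab1) were lower than in control, where 6.74% of all genes tested were lower and 4.47% higher. The same pair was lower than with TGF-β1 (4.56% of all genes lower, 4.06% higher) and lower than with Dll1 (4.14% lower, 3.56% higher). These 3 comparisons share the intestinal array. The median difference of the 4 genes was -1.82 against control, -3.22 against TGF-β1 and -2.76 against Dll1, and that of all tested genes lay between -0.03 and 0.00 in each.

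**Figure D2:**
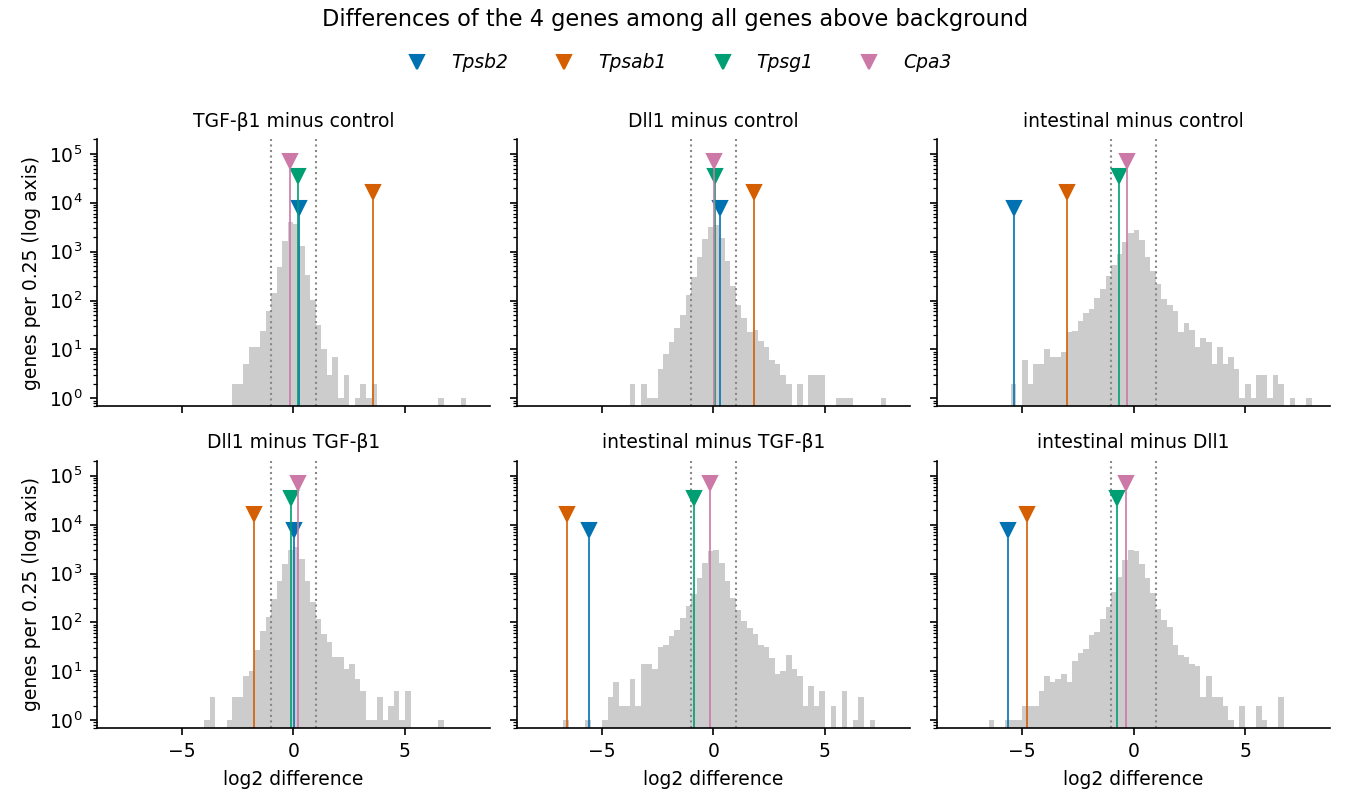
Number of genes (y axis, log scale) by measured log2 difference (x axis) in the 6 comparisons of arrays, over genes above background on at least 1 array of the pair. Triangles mark Tpsb2, Tpsab1, Tpsg1 and Cpa3 at heights chosen for legibility, and dotted lines mark 2-fold: Tpsab1 lies far right with TGF-β1 (3.57), and Tpsb2 and Tpsab1 lie at the far left against the intestinal array.

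As a gauge of technical spread, the log2 differences of genes with 2 probe sets above background varied between those probe sets with a standard deviation of 0.24 for TGF-β1 minus control, 0.34 for Dll1 minus control and 0.48 for intestinal minus control. For Dll1 minus TGF-β1 it was 0.34, and against the intestinal array it was 0.43 for TGF-β1 and 0.39 for Dll1. The Tpsab1 and Tpsb2 differences that passed 2-fold were several times larger, and every Cpa3 difference was smaller. Each of the 4 genes had 1 probe set, so none has a second reading. The gauge covers no spread between cultures or mice.

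The labels were checked on mast cell genes other than the 4. All 11 measured of 12 listed were above background on every array, among them Kit, Fcer1a and Ms4a2, and their summed linear level was 22900 in control, 20246 with TGF-β1, 20165 with Dll1 and 14618 in intestinal cells. Against control, 1 of 11 was lower in intestinal cells (Slc18a2, the amine transporter of the granule membrane, with a difference of -1.77), none was higher, and the median was -0.23. Of all genes tested, 6.74% were lower there and 4.47% higher. With Dll1, Rgs13, a regulator of G protein signalling, was 3.87-fold lower than in control. In intestinal cells Kit differed from control by -0.90 and Tpsb2 by -5.34. Of 5 connective tissue mast cell genes other than the 4, Mcpt4 was higher in intestinal cells than in control and Cma1 and Ndst2 were lower. The receptor Mrgprb1 was below the limit on all 4 arrays. The receptor Mrgprb2 was above it in control alone, at 5.30 against a limit of 5.12. The summed levels of the 5 follow. Their summed level was 1903 in intestinal cells, 6906 in control, 6070 with TGF-β1 and 5283 with Dll1.

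Markers of other cells moved with some arrays. Against control, 1.64% of all genes tested were higher with Dll1 and 4.47% in intestinal cells, and 1.78% and 6.74% were lower. On the Dll1 array 4 of 7 eosinophil genes and 6 of 9 neutrophil genes were higher than in control and the neutrophil gene Ly6g was lower (2.07-fold), with summed linear levels of 4273 against 259 and of 1865 against 318. The eosinophil receptors Siglecf and Il5ra were below the limit there. The same array had 3 of 8 lymphoid genes higher (673 against 262), with Cd3d, Cd3e and Cd3g below the limit, and basophil genes at 2746 against 1582, with 1 of 6 higher and 1 lower. On the intestinal array 4 of 8 lymphoid genes were higher (summed level 2597 against 262), as were 4 of 8 macrophage and dendritic genes (2977 against 333) and 7 of 13 epithelial genes (2134 against 462), although Epcam, Krt19 and Vil1 were below the limit. Basophil genes had 1 of 6 higher and 2 lower there (2373 against 1582). Eosinophil genes had 2 of 7 higher (470 against 259), Siglecf by at least 2.26-fold and Alox15 by 5.35-fold, with Epx, Prg2 and Prg3 below the limit. Neutrophil genes had none of 9 higher and Ly6g lower by at least 2.45-fold (250 against 318). Fibroblast genes had 1 of 7 higher (517 against 231), and B cell genes 1 of 4 (241 against 105). With TGF-β1, the array of the highest Tpsab1 value, the summed levels were 217 for eosinophil, 303 for neutrophil, 226 for lymphoid, 369 for macrophage, 572 for epithelial, 1128 for basophil, 225 for fibroblast and 104 for B cell genes. Of these lists, Cdh1 was higher and Ly6g lower there than in control. On that array Epx, Prg2, S100a8, Elane and Cd3e were below the limit. Individual bright genes weigh heavily in several of these sums. On the intestinal array Itgax read 11.19, Cdh1 10.12, Mcpt8 10.94, Gzma 10.33 and Pdgfrb 8.39, each the brightest of its list. With Dll1, Mcpt8 read 10.89 and Prg2 11.45. The part of other cells in the Dll1 and intestinal values was not tested.

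The chymases and related granule proteases listed here are serine proteases too. Of 9 measured, 2 were higher with TGF-β1 than in control, 5 with Dll1 and 6 in intestinal cells, and 1 was lower in intestinal cells. Of all genes tested, 0.507%, 1.64% and 4.47% were higher in the same order, and 6.74% were lower in intestinal cells. Mcpt1 was at least 157-fold higher with TGF-β1, at least 162-fold with Dll1 and at least 195-fold in intestinal cells, so it was high in all 3 groups, including the one where the tryptases were low. Mcpt2 was 97.1-fold, 63.7-fold and 95.8-fold higher in the same order. Mcpt4 was below the limit in control (4.53) and with TGF-β1 (5.04), and read 10.15 with Dll1 and 10.41 in intestinal cells.

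Cma1, the chymase also called Mcpt5, is known to be needed for storing carboxypeptidase A3 in connective tissue mast cells, and the storage of Cma1 in turn needs that enzyme. It read 12.12 in control, 11.98 with TGF-β1, 11.37 with Dll1 and 7.16 in intestinal cells, where it was 31.1-fold lower than in control. Like Tpsb2 it stood far lower on the intestinal array than in the cultures, whereas Cpa3 differed there from control by -0.30. Mcpt8 and Ctsg (cathepsin G) were 5.41-fold and 9.38-fold higher in intestinal cells than in control, and 5.25-fold and 9.79-fold higher with Dll1. Mcpt9 was at least 3.91-fold higher in intestinal cells than in control, and below the limit on the 3 culture arrays.

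The heparin chains of serglycin hold the Tpsb2 tryptase and carboxypeptidase A3 in the granule. The genes listed here are Srgn and those of enzymes that build and sulfate these chains. Srgn itself read 11.52 in control, 11.57 with TGF-β1, 11.57 with Dll1 and 11.53 in intestinal cells, a span far under 2-fold. Ndst2, the N-sulfotransferase whose loss is known to empty connective tissue mast cells of heparin and of stored proteases, read 11.21, 10.93, 10.49 and 8.48 in the same order. It was 6.64-fold lower in intestinal cells than in control, beside 6.74% of all genes that were at least 2-fold lower. Of the 16 measured genes of this list, none was higher or lower with TGF-β1. With Dll1, 1 was lower (Extl3, an enzyme that starts the chain, at -1.21). In intestinal cells 3 were lower (Ndst2, Extl3 at -1.24 and the 6-O-sulfotransferase Hs6st2 at -1.04). Of all genes tested, 0.507%, 1.64% and 4.47% were higher with TGF-β1, Dll1 and in intestinal cells, and 0.89%, 1.78% and 6.74% were lower. The list medians were -0.16, 0.00 and -0.07.

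Between the treated cultures, Xylt1, which adds the first sugar to the core protein, and the 3-O-sulfotransferase Hs3st1 were higher with Dll1 than with TGF-β1, by 1.45 and 1.07, and Extl3 was 2.05-fold lower. Of all genes tested in that pair, 2.19% were higher and 1.9% lower. Chondroitin sulfate is the other glycosaminoglycan of serglycin and the one typical of mucosal mast cells. Of 7 measured genes of its synthesis, 0 passed 2-fold in any of the 6 comparisons. In these, 0.507% to 4.47% of all genes tested were higher and 0.89% to 6.74% lower. Of the 9 genes listed, Chpf2 and Chst15 were not measured, and Ust was below the limit on every array. The closest against control was Chsy1, a chondroitin synthase, at 0.77 with TGF-β1.

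**Figure D3:**
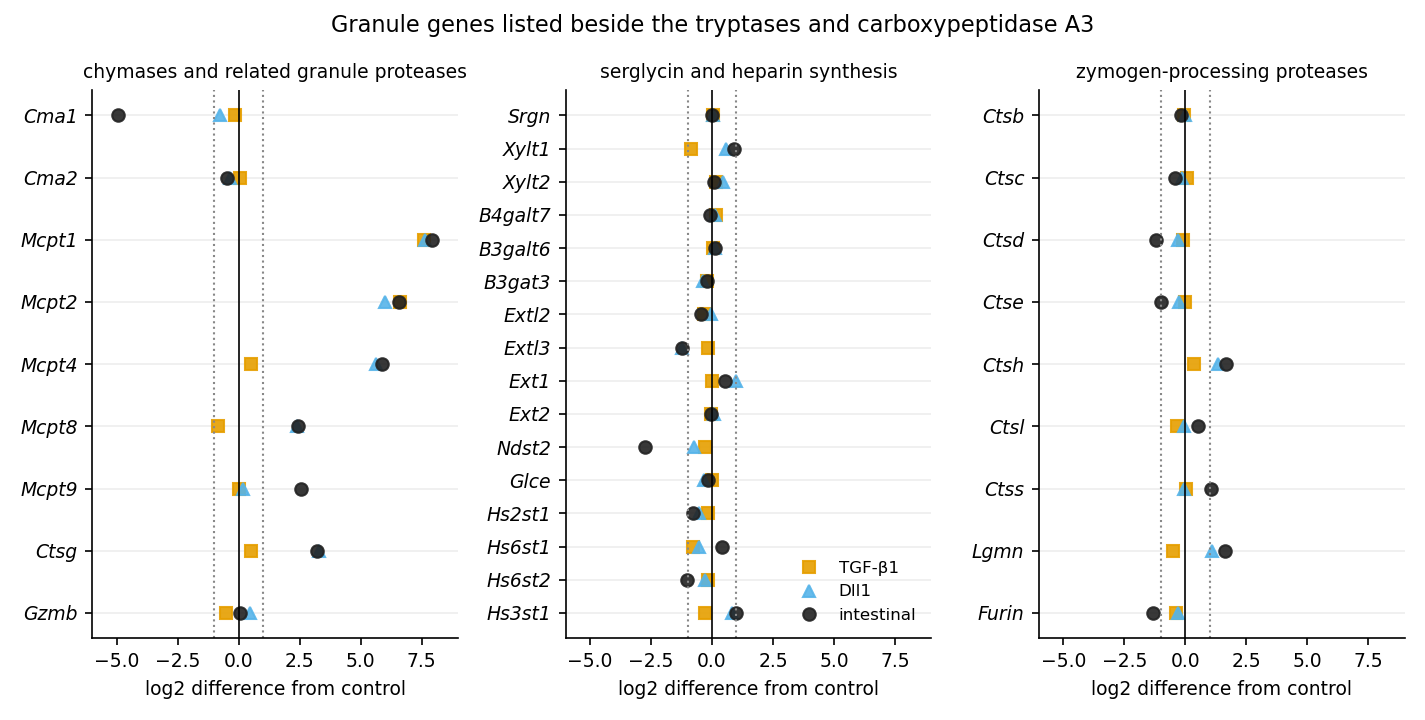
Measured log2 difference from control (x axis) of each listed gene (y axis) with TGF-β1 (squares), Dll1 (triangles) and in intestinal mast cells (circles), 1 array per group, values below background included. Dotted lines mark 2-fold: in intestinal cells Cma1 (-4.96) and Ndst2 (-2.73) lie far to the left while Srgn stays at 0.01.

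Proteases that trim zymogens in the granule or on the way to it were listed as well. Cathepsin C (Ctsc) removes the dipeptide that keeps chymases inactive, and cathepsin E (Ctse) is known to act on pro-carboxypeptidase A3. Neither passed 2-fold against control, with Ctsc differing by 0.06, -0.13 and -0.41 with TGF-β1, Dll1 and in intestinal cells. Ctse read 12.09, 12.07, 11.85 and 11.11 from control to intestinal cells, and its difference of -0.99 there fell just short of 2-fold. Of the 9 genes, none was higher or lower with TGF-β1, Ctsh and Lgmn were higher with Dll1, and 3 were higher and 2 lower in intestinal cells. Of all genes tested, 1.64% were higher with Dll1, and 4.47% were higher and 6.74% lower in intestinal cells. In intestinal cells the higher ones were Ctsh (at least 2.97-fold), legumain Lgmn (3.08-fold) and Ctss (2.05-fold), proteases that macrophages also express. The lower ones were Furin (2.51-fold) and Ctsd (2.29-fold). With Dll1, Ctsh was at least 2.38-fold and Lgmn 2.13-fold higher, and no listed macrophage and dendritic gene was higher there. The part of macrophages in these values was not tested.

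F2r, the thrombin receptor, was the 1 of 3 measured protease-activated receptors past 2-fold, 6.82-fold lower in intestinal cells than in control (8.83 against 11.60). Of the 4 receptors listed, F2rl1 was not measured. Among 11 measured transcription factors of mast cells, Gata1 was lower in intestinal cells, at -1.62, beside 6.74% of all genes tested. None passed 2-fold with TGF-β1 or with Dll1. Mitf, a factor known to act on tryptase and other granule protease genes, read 8.92 in control, 8.26 with TGF-β1, 9.04 with Dll1 and 8.29 in intestinal cells, and Gata2 read 10.54, 10.48, 9.86 and 10.41.

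None of the trypsin-like genes and metallocarboxypeptidases listed as relatives passed 2-fold in any comparison. Of 11 trypsin-like genes listed, among them the neighbours Prss28, Prss29 and Prss34, no more than 6 were above background in any comparison. The highest reading among them was 5.75 (Prss41 with Dll1), so none had room for a 2-fold fall. Prss34, a tryptase-like protease of basophils and mast cells, read 5.74 in control and was below the limit with TGF-β1 (5.19), Dll1 (4.95) and in intestinal cells (4.87). Of 13 measured metallocarboxypeptidases other than Cpa3, no more than 3 were above background in any comparison. Cpd, a membrane carboxypeptidase of the trans-Golgi network, read 8.20, 8.30, 8.02 and 7.58 from control to intestinal cells. Cpb1, the nearest measured gene after Cpa3 in RefSeq order, was below the limit on every array (4.54 to 4.66).

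Tpsab1, Tpsb2 and Tpsg1 follow each other in RefSeq order, between Prss29 and the calcium channel gene Cacna1h. None of the 10 measured neighbours of this run, 5 on each side, passed 2-fold against control on any of the other arrays, and the largest difference among them was 0.86 in size, for Prss34. Of these neighbours, Gm17801, Prss28, Prss29, Cacna1h, Tekt4 and Cerox1 were below the limit on all 4 arrays. The highest reading among the others was 5.74 (Prss34 in control), so no neighbour had room for a 2-fold fall. Around Cpa3, 1 of 10 measured neighbours passed 2-fold, the RNA gene Rprl2, at -1.60 in intestinal cells. Gm17771, Cp, Cpb1 and Naaladl2 were below the limit on all 4 arrays. Gyg, the neighbour on the other side, read 10.25, 9.88, 10.15 and 9.97. Of all genes tested, 0.507%, 1.64% and 4.47% were higher with TGF-β1, Dll1 and in intestinal cells, and 0.89%, 1.78% and 6.74% were lower.

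**Figure D4:**
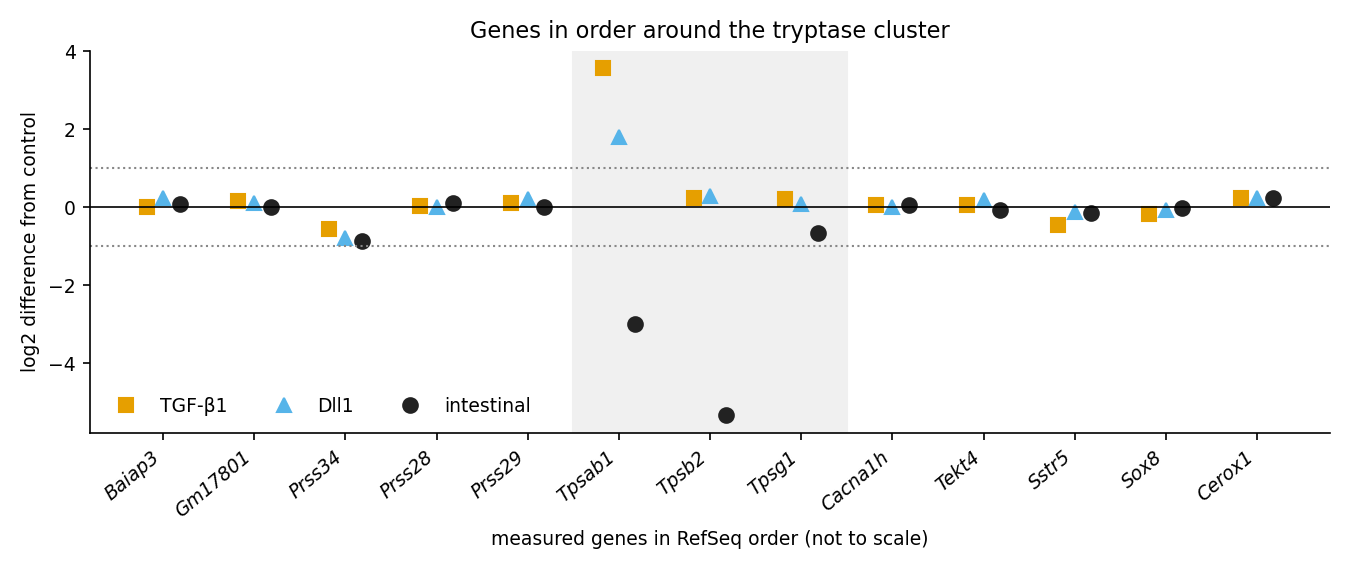
Measured log2 difference from control (y axis) with TGF-β1 (squares), Dll1 (triangles) and in intestinal mast cells (circles) for the tryptases (shaded) and 5 measured genes on each side in RefSeq order, not to scale, 1 array per group. Dotted lines mark 2-fold: Tpsab1 and Tpsb2 leave that band, and the neighbours, all read near or below background, stay within 0.86 of control.

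Genes with the pattern most like each tryptase were sought among 12097 genes, by the root mean square distance of log2 profiles centred on their mean over the 4 arrays. The 5 genes nearest to Tpsb2 included Igfbp5, which binds insulin-like growth factors, at 0.35 (9.61, 9.42, 10.12 and 4.79 from control to intestinal cells). The others were the receptor phosphatase Ptprg at 0.38, Cma1 at 0.52, the complement regulator Cd55 at 0.65 and the adhesion molecule Cadm3 at 0.67. The intestinal readings of Igfbp5, Ptprg (4.69) and Cd55 (4.76) were below that array's limit of 5.11, so their distances rest in part on readings not above background and the order of the 5 is not settled. For Tpsab1 they were Tpsb2, at a distance of 1.22, Gpm6a at 1.30, Cadm3 and Cma1 at 1.34 and Igfbp5 at 1.35. No gene searched came within 2-fold of the Tpsab1 profile by this measure, a distance of 1 on the log2 scale. Cpa3 and Tpsg1 spanned under 2-fold over the arrays and were not matched.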

How the data were processed

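Labelled cDNA was amplified from 2 ng of total RNA per the labels' protocols and hybridised to 4 Affymetrix arrays, 1 per group. The deposited table holds log2 values. How they were summarised and normalized, and on which genome build, is not given in the sources used here. All 4 arrays had nearly 1 distribution (mean range of sorted values 0.06, largest 0.25) and were not normalized again.

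Symbols came from the platform annotation, where 23521 probe sets had 1 symbol, 1814 several and 8458 none. Only the first were used. For 1082 genes with more than 1 probe set, the one with the highest mean was taken. Gene order, gene types and promoters came from RefSeq (GRCm38.p6), and 2 of the 4 genes matched the promoter table.

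Differences were computed with Python 3.11.15, numpy 2.4.6 and pandas 2.3.3. Arrays have no read depth, and their number limits the precision. The 4 genes, the gene lists and the alternatives were chosen with earlier results of these data known. Named genes were the 4, up to 4 members of each list by size of difference, and the 5 genes nearest in pattern to each gene that spanned at least 1 on the log2 scale, leaving out predicted genes and small RNAs. Some genes were also named for their role or as neighbours, Mitf, Gata2, Gyg, Kit and Cpd among them. Alternatives were array medians subtracted, quantile normalization, other background limits or none, averaged probe sets, an offset of 16 subtracted, and a 1.5-fold threshold.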

Additional observations from a re-analysis of the deposited data

How the results depend on the processing

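The 24 differences of the 4 genes were recomputed under 7 alternatives. Averaged probe sets, the 90th percentile and no limit could not move them, since each gene has 1 probe set and reads above the limit on every array. Of the 96 values from the other 4 (array medians, repeated quantile normalization, the 99th percentile and the offset), 87 stayed within the spread between probe sets, 90 kept their call and no called difference reversed. With an offset of 16 subtracted, Tpsab1 in intestinal cells was -3.69 against control, -7.33 against TGF-β1 and -5.55 against Dll1, and Tpsg1 was -1.33 against TGF-β1 and -1.15 against Dll1. With background at the 99th percentile, Tpsab1 in intestinal cells was -2.32 against control, -5.89 against TGF-β1 and -4.13 against Dll1, and Tpsg1 was -0.06 against TGF-β1, since values under a higher limit are raised to it. Counts of genes past the threshold rose with the offset to 294 from 168 (TGF-β1 minus control), 753 from 436 (Dll1 minus control) and 834 from 517 (Dll1 minus TGF-β1). At 1.5-fold they were 785, 1581 and 1707 in that order, and for the intestinal array 3204 from 1426 (minus control), 2584 from 1081 (minus TGF-β1) and 2678 from 1003 (minus Dll1). The dim end of the scale limits Tpsg1 and the intestinal value of Tpsab1, and the bright end limits Cpa3. No paired analysis was possible because each group has 1 array.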
